A study of Rattus norvegicus with 18 samples.

Results

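The genes described here act in protein processing in the endoplasmic reticulum (ER). They are the rows of the wild type (WT) and miR-337-/- (KO) gene tables that the submitters' annotation places in the KEGG pathway of that name. Atf4, Ddit3, Nfe2l2, Bcl2, Bax and Bak1 also carry that entry and were left out. This left 156 members of the 162 rows with the entry, among 32623 genes in each table. The members were sorted into roles by gene name, from lists written by known function. The roles held 15 luminal chaperones and oxidoreductases, 14 genes of the translocon and signal sequence and 7 of the oligosaccharyltransferase. Glycan trimming and the lectin cycle had 21, the COPII coat 11, the membrane complexes and ubiquitin enzymes of degradation 26, and the VCP complex and shuttling 13. There were 22 cytosolic chaperones, 22 stress sensors and signalling genes, and 5 others. The others are names on no list: Ppa1, Erp29, LOC103692171, LOC103692716 and LOC108348108. The counts of the named roles leave them out, even where the annotation fits a role, as for LOC103692716 (HSP90-alpha).

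Secretory and membrane proteins enter the ER through the Sec61 channel, receive N-linked glycans, fold with the help of luminal chaperones and leave in COPII vesicles. Proteins that fail to fold are pulled back into the cytosol and degraded by the proteasome, and cytosolic heat shock proteins assist on that side of the membrane. The sensors Atf6, Ern1 (IRE1) and Eif2ak3 (PERK) read the folding load and adjust chaperone transcription and translation, a program known as the unfolded protein response. Mesenchymal stem cells (MSCs) secrete collagen and other matrix proteins, which pass through this pathway.

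The cultures were bone marrow MSCs from 2-month-old SD rats, used at passage 3. WT and KO cells were starved of serum for 8 h and then received fetal bovine serum (FBS), 10% cyclic mechanical stretch (CMS) or continued serum starvation (SSt), each labelled as 24 h, although the study's methods give a shorter time. Each of the 6 groups had 3 libraries, 18 in all. Each genotype had its own SSt group, so the starved KO cells lack miR-337 as well, and the 8 h of starvation were common to every group. The labels do not state if a group's 3 libraries stem from separate rats or cultures, so p-values measure the spread between libraries, which may be technical.

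Total counts ran from 56083000 to 71847969 per library. The row for Mir337 was listed at 0 counts in every library of both genotypes, so these libraries did not check the genotype labels. Levels are given as FPKM, fragments per kilobase of transcript scaled to library size. Lepr, the surface marker that the study names for these MSCs, lay between 0 and 0.07 FPKM in every library, whereas 7 or 8 of the 9 MSC markers reached a mean of 1 FPKM in each group. Of 12 macrophage and other blood cell markers, 11 did so too. Their summed level was 4081 to 4214 FPKM in WT SSt, 6579 to 7235 in WT FBS and CMS, 2383 to 2487 in KO SSt and 4578 to 5550 in KO FBS and CMS, with Cd163 under 0.2 FPKM in every library. Lyz2 made up most of that sum, with a median of 2319 FPKM in WT SSt, 5085 in WT FBS and 4857 in WT CMS. Ptprc, Cd68, Tyrobp and Fcer1g also had higher medians in FBS and CMS than in SSt, in both genotypes. Cd68 had 269, 505 and 497 FPKM in WT SSt, FBS and CMS and 142, 438 and 515 in KO. Not all markers did so. In the same order of groups, Cd14 had medians of 559, 218 and 153 FPKM in WT and 150, 215 and 190 in KO. Csf1r had 118, 160 and 139 in WT and 107, 130 and 49.2 in KO. The sum of 3 markers of dividing cells was 81.7 to 89.6 FPKM in WT SSt, 44.4 to 48.4 in WT FBS and CMS, 142.9 to 170.5 in KO SSt, 12.3 to 38.5 in KO FBS and 9.50 to 14.3 in KO CMS. The part of these cell types in the results below was not tested. In these bulk samples, fewer cells of a type and less RNA per cell cannot be told apart. KO FBS replicate 1 had a mean correlation of 0.959 to the rest of KO FBS and of 0.960 to the KO CMS libraries. WT CMS replicate 1 likewise had 0.9675 to its own group and 0.9678 to WT FBS. Without KO FBS replicate 1, no member that had passed changed its direction. In KO FBS over SSt 6 calls were lost and 6 gained, in KO CMS over FBS 2 were lost and 12 gained, and in the FBS difference between genotypes 8 were lost and 3 gained. Values without it stand below beside some of the results that it moves.

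The promoters of 124 members could be read from the RefSeq table of rat promoters (build GRCr8, 250 bases before to 50 after the start). This build is not that of the deposited tables, and no position was taken from those. The motifs searched, on both strands, were 3. The ER stress response element (ERSE) was spelled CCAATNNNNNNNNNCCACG, the second such element (ERSE-II) ATTGG and CCACG set 1 base apart, and the heat shock element (HSE) GAA, TTC and GAA with 2 bases between each. An ERSE stood in 8 of 124 member promoters (6.45%) and in 21 of 27457 genes of the table (0.0765%). An ERSE-II stood in 3 (2.42%, against 0.0619%) and an HSE in 4 (3.23%, against 0.794%). ERSE members were Hspa5, Hsp90b1, Canx, Calr, Xbp1, Dnajc3, Ero1b and Derl3, ERSE-II members Hyou1, Dnajb11 and Herpud1, and HSE members Hspa8, Hsph1, Dnaja1 and Cul1. A match describes the letters in this window and is not shown to be a binding site. The following stretches are a selection from genes that recur in the comparisons below. Those of Calr, Xbp1, Dnajc3, Derl3 and Cul1 are not printed. The motif is in capitals with 16 bases on each side, read along the gene's own strand.
Hspa5, chr3:38452957-38453007, plus strand: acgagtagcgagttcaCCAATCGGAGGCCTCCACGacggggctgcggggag
Hsp90b1, chr7:23012331-23012381, minus strand: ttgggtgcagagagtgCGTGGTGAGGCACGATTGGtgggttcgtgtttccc
Hsp90b1, chr7:23012435-23012485, minus strand: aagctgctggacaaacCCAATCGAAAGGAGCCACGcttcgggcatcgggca
Canx, chr10:35158053-35158103, minus strand: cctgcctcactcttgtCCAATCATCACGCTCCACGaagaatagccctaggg
Ero1b, chr17:92941442-92941492, plus strand: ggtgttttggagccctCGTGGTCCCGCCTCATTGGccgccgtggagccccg
Hyou1, chr8:53602678-53602720, plus strand: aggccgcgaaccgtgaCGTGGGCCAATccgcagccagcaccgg
Hyou1, chr8:53602778-53602820, plus strand: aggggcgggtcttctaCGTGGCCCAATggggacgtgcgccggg
Dnajb11, chr11:91672784-91672826, minus strand: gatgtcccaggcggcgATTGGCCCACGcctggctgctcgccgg
Herpud1, chr19:10614805-10614847, minus strand: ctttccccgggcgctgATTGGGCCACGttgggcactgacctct
Hspa8, chr8:50080285-50080329, plus strand: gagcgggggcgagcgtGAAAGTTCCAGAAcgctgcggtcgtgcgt
Hspa8, chr8:50080443-50080487, plus strand: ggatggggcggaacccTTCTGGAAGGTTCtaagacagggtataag
Hsph1, chr12:10427316-10427360, plus strand: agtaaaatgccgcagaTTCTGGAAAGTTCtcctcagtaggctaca
Dnaja1, chr5:60638397-60638441, plus strand: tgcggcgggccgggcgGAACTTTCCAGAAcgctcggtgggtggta

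Expression ranged widely across the pathway. Of the 156 members, 144 averaged at least 1 FPKM over the 18 libraries, 31 averaged at least 100 FPKM, and 4 were listed at 0 in every library. At least 1 FPKM in at least 3 of the 18 libraries was reached by 146 members and by 13317 of all 32623 genes. The share of all genes averaging at least 100 FPKM was not counted. Calr, which encodes the lectin chaperone calreticulin, was the most abundant at a mean of 1095 FPKM, followed by the protein disulfide isomerase P4hb at 957 FPKM and the cytosolic HSP90 gene Hsp90ab1 at 672 FPKM. FPKM values are scaled per length and can be compared between genes. The members together took 2.52% to 2.54% of all FPKM in WT SSt, 2.08% to 2.09% in WT FBS and 2.07% to 2.14% in WT CMS. In KO cells they took 2.59% to 2.65% in SSt, 2.12% to 2.16% in FBS and 2.24% to 2.29% in CMS. In both genotypes the SSt libraries stood above all FBS and CMS libraries, and in KO cells the CMS libraries stood above the FBS libraries.

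**Figure D1:**
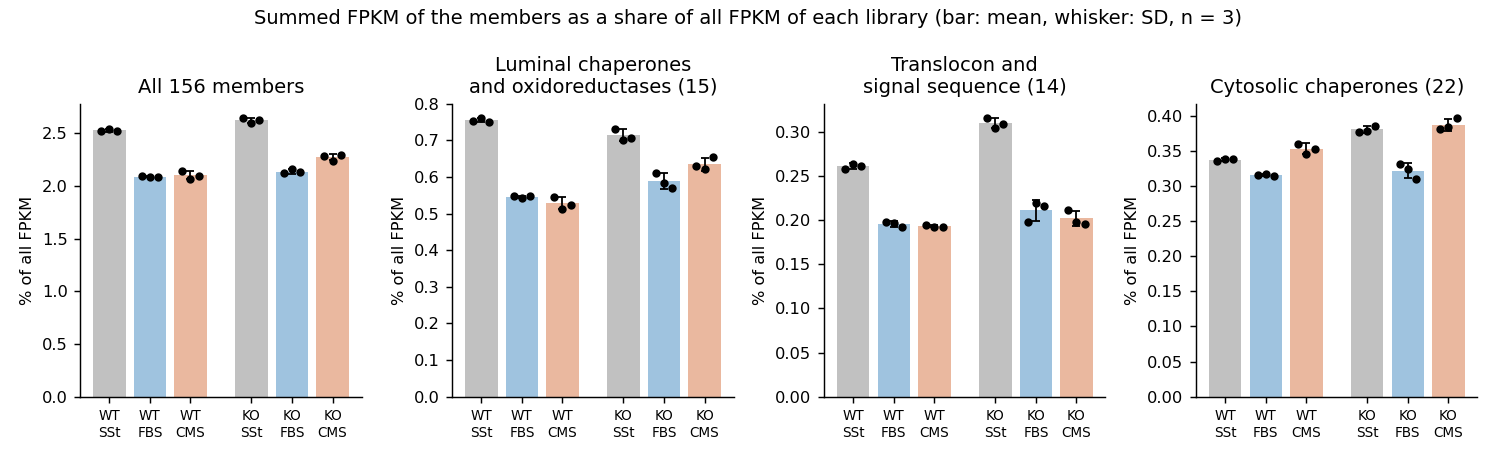
Summed FPKM of the members as a percentage of all FPKM of each library, for all 156 members and for 3 roles (x axis: the 6 groups, bars: mean, whiskers: SD, points: the 3 libraries). The share of all members was at least 2.52% in WT SSt and at most 2.14% in WT FBS and CMS, and the cytosolic chaperones of CMS stood above those of FBS in both genotypes.

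To find which members answered to serum, WT FBS was compared with WT SSt. Of 156 members, 144 passed the filter of 1 FPKM in at least 3 libraries. The other 12 were low or absent, among them Cryaa, Dnajc5b, Sel1l2, Fbxo2, Sec31b, Mapk10, Svip and LOC108348108, which reached 3.41 FPKM at most. Of the 144, 100 (69.4%) were lower and 22 (15.3%) higher at an adjusted p under 0.05. The test was the edgeR quasi-likelihood F test, with trimmed-mean scaling and Benjamini-Hochberg adjustment over 12916 genes. Of all genes tested, 32.7% were lower and 33.7% higher. Past a fold of 2 as well, 9 members were lower and 1 higher, with 7.14% and 8.95% of all genes. The members' median log2 fold change was -0.24, and that of all genes was 0.012. The lowest role medians were those of the lumen and the translocon.

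Of the 15 luminal chaperones and oxidoreductases, 14 were lower in WT FBS and 1 was higher, with a median log2 fold change of -0.54. Hspa5 encodes BiP, the main luminal HSP70. Its level was 583, 629 and 589.9 FPKM in the WT SSt libraries, 372, 375 and 369.5 in WT FBS and 378, 352 and 369.9 in WT CMS. Every SSt library stood far above the other 6 WT libraries, and FBS and CMS overlapped. The log2 fold change of Hspa5, given here and below with its SE and on the log2 scale throughout, was -0.73 ± 0.035 in FBS (adjusted p = 5.19e-08). Hyou1, an HSP70-like partner of BiP, fell from 112 ± 3.53 FPKM (mean ± SD, n = 3) to 55.3 ± 0.661, by 1.05 ± 0.031 (adjusted p = 1.41e-09). The BiP co-chaperone Dnajb11 fell from 103 ± 1.13 to 52.0 ± 0.867 FPKM, by 1.02 ± 0.038 (adjusted p = 8.13e-09). Both had groups that did not overlap. Hsp90b1 (GRP94, the luminal HSP90) fell by 0.71 ± 0.036 and Pdia4, a disulfide isomerase, by 0.54 ± 0.036. Ero1a and Ero1b, the oxidases that recharge disulfide isomerases, fell by 0.82 ± 0.067 and 0.94 ± 0.11. The most abundant isomerases moved less, with log2 fold changes of -0.38 for P4hb and -0.41 for Pdia3. The one member of the role that rose was Sil1, the nucleotide exchange factor of BiP, at 0.44 ± 0.057. 

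At the translocon, 12 of 14 members were lower, 1 was higher and 1 did not pass. Ckap4, which encodes a membrane protein of rough ER sheets, had 129, 128 and 131 FPKM in WT SSt, 52.5, 54.9 and 50.7 in WT FBS and 52.1, 53.0 and 49.8 in WT CMS. The SSt libraries were more than 2 times as high as any treated library. Its log2 fold change was -1.33 ± 0.037 in FBS (adjusted p = 1.15e-09). The subunits of the Sec61 channel fell by 0.68 ± 0.027 (Sec61a1) and 0.81 ± 0.063 (Sec61g), and Ssr4, of the translocon-associated protein complex, by 0.41 ± 0.043. Bcap31, a membrane chaperone of the ER, rose instead, by 0.28 ± 0.035, with 93.8, 92.7 and 94.5 FPKM in SSt against 114, 119 and 116 in FBS. Among the 7 genes of the oligosaccharyltransferase, which attaches the glycan, 5 were lower and 1 higher. Dad1 fell from 153 ± 8.90 to 85.6 ± 0.775 FPKM (-0.87 ± 0.052), and the large subunit gene Rpn1 rose slightly (0.14 ± 0.027).

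Of the 19 tested genes of glycan trimming and the lectin cycle, 12 were lower and 5 higher. Calr fell by 0.34 ± 0.028 and Canx, the membrane-bound lectin chaperone, by 0.10 ± 0.024. Fbxo6, which directs the ubiquitin ligase to glycoproteins, rose by 0.66 ± 0.050, from 28.0, 28.4 and 28.1 to 47.4, 45.7 and 43.5 FPKM, with no overlap. The glucosidase subunit Prkcsh and the cargo lectin Lman2, both abundant, had log2 fold changes of -0.22 (adjusted p = 0.000141) and -0.51 (adjusted p = 1.73e-07). In the COPII coat 6 of 10 tested genes were lower and none was higher at this threshold in FBS by edgeR, the lowest being Sec13 (-0.48 ± 0.042). Sec24d, a cargo adaptor of the coat, had 48.8, 48.0 and 48.2 FPKM in SSt and 44.0, 42.4 and 43.3 in FBS (-0.20 ± 0.028, adjusted p = 0.000159), and the outer coat gene Sec31a had a log2 fold change of -0.10 (adjusted p = 0.00551).

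Among the membrane complexes and ubiquitin enzymes of degradation 17 of 23 tested members were lower and 5 higher. Herpud1, which gathers the retrotranslocation complex, was the one member of the pathway that rose by more than 2-fold. It had 23.8, 26.0 and 24.6 FPKM in WT SSt, 54.3, 52.7 and 55.9 in WT FBS and 57.5, 58.2 and 54.7 in WT CMS. All treated libraries were more than 2 times as high as any SSt library. Its log2 fold change was 1.10 ± 0.044 in FBS (adjusted p = 1.19e-08). Sel1l, the scaffold of the same ubiquitin ligase complex, rose by 0.22 ± 0.033, whereas Derl3, a low-level membrane component, fell by 1.17 ± 0.31 with 5.25, 3.29 and 3.40 FPKM in SSt and 2.40, 1.51 and 1.53 in FBS. Of the abundant ubiquitin enzymes, Ube2d3 had a log2 fold change of -0.32 (adjusted p = 6.08e-06), and the ligase subunits Skp1 and Rbx1 had -0.26 (adjusted p = 2.46e-05) and -0.37 (adjusted p = 0.000103). Selenos, a membrane selenoprotein that recruits VCP, had 67.9, 68.2 and 70.8 FPKM in SSt and 63.3, 65.7 and 63.9 in FBS (-0.14 ± 0.037, adjusted p = 0.00892). Around the segregase VCP 8 of 12 tested members were lower and 2 higher. Vcp itself fell by 0.17 ± 0.022 and the shuttle factors Rad23b and Ubqln1 by 0.53 ± 0.027 and 0.66 ± 0.036.

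Cytosolic chaperones held the lowest log2 fold changes of the pathway. In WT FBS 14 of 19 tested were lower and 1 higher, and 5 fell past 2-fold. Hsph1, an HSP110 exchange factor, had 85.1, 84.3 and 84.5 FPKM in SSt and 40.0, 42.4 and 42.2 in FBS, a log2 fold change of -1.06 ± 0.030 (adjusted p = 1.28e-09). The spread within each group was a small part of that gap. Bag2, a nucleotide exchange factor and regulator of HSP70, fell by 1.39 ± 0.077 and Hspa1b, the inducible HSP70, by 2.02 ± 0.21. Hspa1l fell by 3.23 ± 0.28 from 2.82 ± 0.260 FPKM, but Hspa1b, Hspa1l and LOC108348108 (annotated as HSP70 1A) are near copies whose reads the counting may split, and their values are uncertain. Hspa4l, an HSP110 relative, fell by 1.80 ± 0.14 from 3.42, 2.65 and 3.57 to 0.922, 0.854 and 1.05 FPKM. Hsp90ab1 was the one cytosolic chaperone that rose, by 0.27 ± 0.021, while Hsp90aa1 fell by 0.91 ± 0.041. The row LOC103692716 is a near copy of Hsp90aa1 and LOC103692171 a near copy of Mogs, which makes these values uncertain as well.

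Among the stress sensors and signalling genes 9 of 21 tested were lower and 6 higher. The 3 sensors moved differently. Atf6 had 44.2, 42.3 and 43.5 FPKM in SSt against 26.9, 24.4 and 26.5 in FBS, with no overlap, and its log2 fold change was -0.78 ± 0.041 (adjusted p = 8.41e-08). Ern1 fell by 0.45 ± 0.056, and Eif2ak3 rose by 0.20 ± 0.045 (adjusted p = 0.00254). Xbp1, whose mRNA IRE1 splices, fell by 0.43 ± 0.049. Ppp1r15a (GADD34), which brings phosphatase to eIF2alpha, had 75.0, 73.1 and 72.8 FPKM in SSt and 45.8, 42.1 and 43.6 in FBS and fell by 0.78 ± 0.045 (adjusted p = 1.59e-07). Casp12, a caspase at the ER membrane, had the highest log2 fold change of the role, 0.95 ± 0.13.

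**Figure D2:**
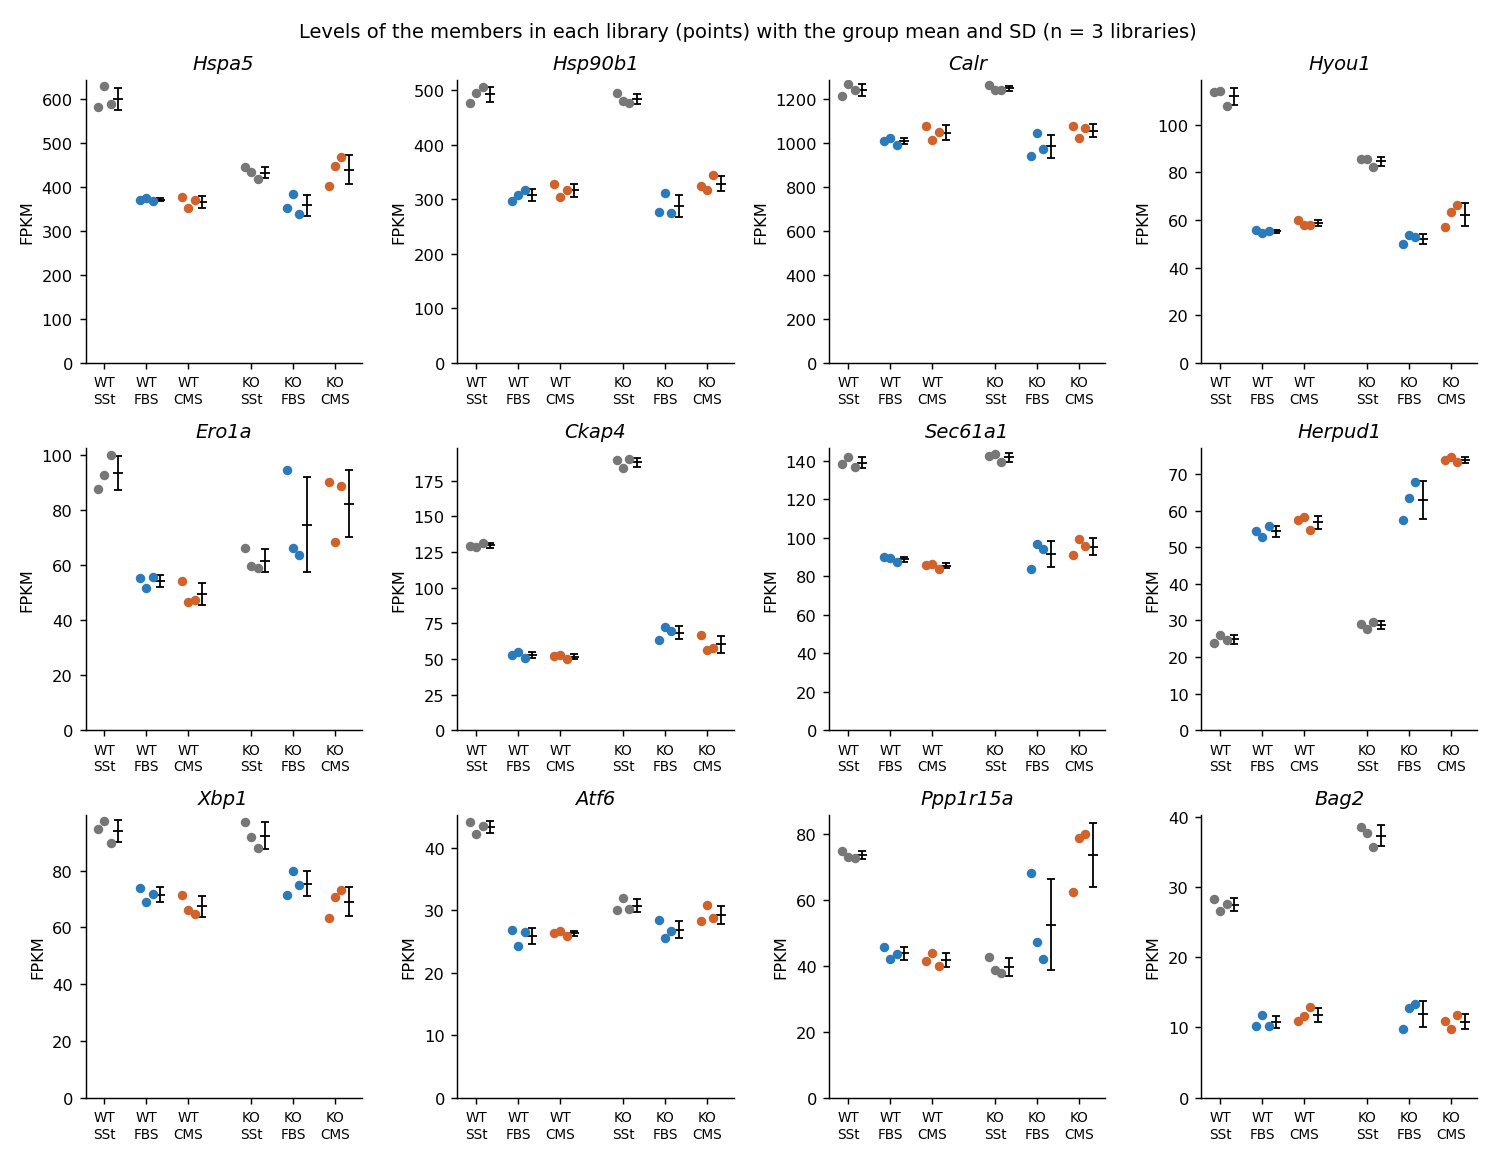
FPKM of 12 members in each of the 18 libraries (y axis: FPKM, x axis: the 6 groups, coloured points: libraries, black marks: mean and SD, n = 3). Hspa5, Hyou1, Ckap4 and Atf6 were highest in WT SSt or KO SSt and lower in WT FBS and CMS, Herpud1 was lowest in SSt, and Ppp1r15a was lower in treated WT libraries but as high as 80.0 FPKM in KO CMS.

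Stretch was compared with starvation in the same way, with the same 3 SSt libraries. In WT CMS 96 of 144 tested members were lower (66.7%) and 24 higher (16.7%), with 32.3% and 34.6% of all genes. Past 2-fold, 7 members were lower and 1 higher, with 8.02% and 8.66% of all genes. The median log2 fold change of the members was -0.23 and that of all genes 0.017. The luminal role again had 14 lower and 1 higher, and the translocon 12 lower and 1 higher. Hspa5 fell by 0.74 ± 0.035, Dnajb11 by 1.0 ± 0.038 and Ckap4 by 1.35 ± 0.037. Atf6 fell by 0.74 ± 0.041 and Ppp1r15a by 0.84 ± 0.045. The degradation genes Herpud1 and Fbxo6 rose by 1.17 ± 0.044 and 0.65 ± 0.050. Both comparisons rest on one set of SSt libraries, so their likeness is not independent support. Of the 19 tested cytosolic chaperones 11 were lower, 4 of them past 2-fold, and 2 were higher, with a median log2 fold change of -0.25. Within this role Hspa8, Dnaja1, Dnaja2, Hspbp1 and Hsp90ab1 had log2 fold changes of -0.046, -0.011, -0.044, 0.14 and 0.50. Only the last 2 of these passed, as higher.

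**Figure D3:**
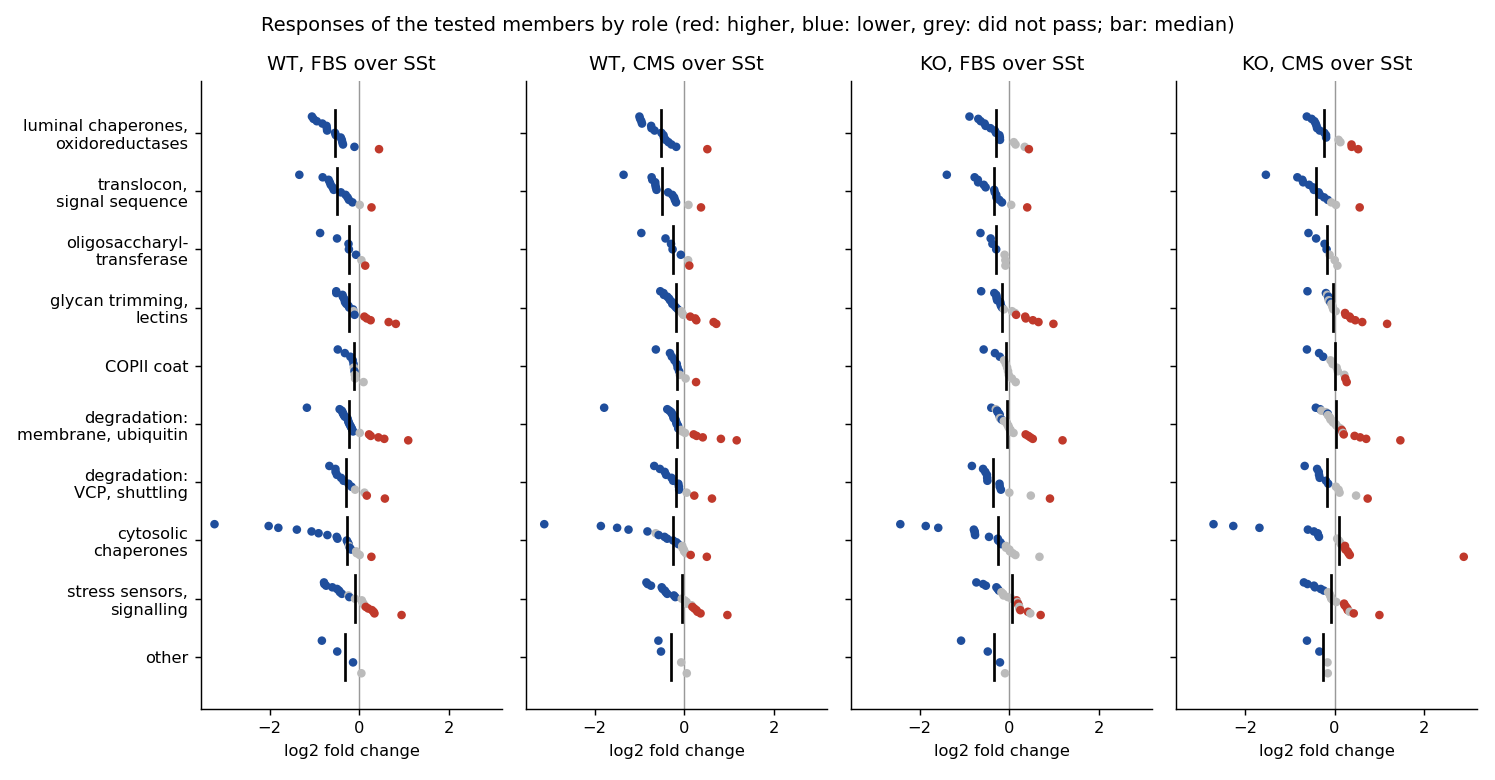
Log2 fold change of each tested member over SSt by role, in 4 panels (x axis: log2 fold change, rows: roles, red: higher and blue: lower at an adjusted p under 0.05, grey: did not pass, bars: medians). The luminal and translocon medians lay at -0.54 and -0.49 in WT FBS and nearer 0 for the luminal role in KO CMS, at -0.23.

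CMS was also compared with FBS directly, to set the 2 stimuli apart from what both share against starvation. In WT cells 13 of 144 members were higher (9.03%) and 2 lower (1.39%), with 3.91% and 5.03% of all genes. Of the 13, 6 were cytosolic chaperones and none was a luminal chaperone or translocon gene. Hsp90ab1 had 662, 654 and 649.5 FPKM in FBS and 769, 755 and 765 in CMS. No CMS library overlapped an FBS library, and the log2 fold change was 0.23 ± 0.021 (adjusted p = 0.000428). Hsp90aa1 rose by 0.33 ± 0.041, Hsph1 by 0.24 ± 0.030, Dnaja2 by 0.21 ± 0.029 and Hspa8, the constitutive HSP70, by 0.19 ± 0.027. Dnaja1 and Dnaja2 encode HSP40 co-chaperones of HSP70. Hspa8 had 389, 402 and 391 FPKM in FBS and 457, 431 and 448 in CMS, and the groups did not overlap. These steps were small, at most 1.26-fold by the fitted values of the 6 genes. The number of members higher fell to 7 without WT FBS replicate 2 or WT CMS replicate 3 and to 8 without WT CMS replicate 2, with none lower in these 3 cases by edgeR, and 1 was lower without WT FBS replicate 1.

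In KO cells 32 of 144 members were higher in CMS than in FBS (22.2%) and 5 lower (3.47%), with 6.73% and 8.09% of all genes. Of the 32, 10 were cytosolic chaperones, 6 belonged to the VCP and shuttling role, 5 were luminal and 5 were of the lectin cycle. Dnaja1 had 87.5, 91.9 and 79.8 FPKM in KO FBS and 119, 114 and 125 in KO CMS, without overlap, and rose by 0.51 ± 0.062 (adjusted p = 0.00159). The HSP40 gene Dnajb2 rose by 0.40 ± 0.059, Vcp by 0.30 ± 0.048, Hspa8 by 0.37 ± 0.068 and Hsph1 by 0.55 ± 0.10. Hspa4l had 2.69, 1.73 and 1.35 FPKM in KO FBS and 6.43, 9.58 and 10.0 in KO CMS and rose by 2.21 ± 0.27 (adjusted p = 0.00168). Hspa5 also rose, by 0.34 ± 0.072, as did Canx by 0.28 ± 0.049. Without KO FBS replicate 1, 39 members were higher and 8 lower. Among the 12 that newly passed were P4hb (0.41), Ppp1r15a (0.79), Ero1a (0.42), Hspa1b (0.53), Dnajb12 (0.29) and Cryab (-1.07). Leaving out KO CMS replicate 3 gave 15 and 1, KO CMS replicate 2 gave 20 and 0, KO FBS replicate 3 gave 19 and 2, and without KO FBS replicate 2 none was lower, and fitting the 2 groups alone gave 13 and 0. Of the 4 HSE members, Hspa8, Hsph1 and Dnaja1 were higher in CMS in both genotypes. Cul1 had log2 fold changes of 0.0025 in WT and 0.11 in KO, the latter 0.16 ± 0.047 without KO FBS replicate 1 (adjusted p = 0.0399). Hsp90ab1 (0.23 in WT, 0.34 in KO) and Rad23b (0.12 and 0.19) were also higher in both, with no HSE in their windows. So were Hsp90aa1, Dnaja2 and LOC103692716, which had no promoter entry. The part of the motif in these changes was not tested.

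**Figure D4:**
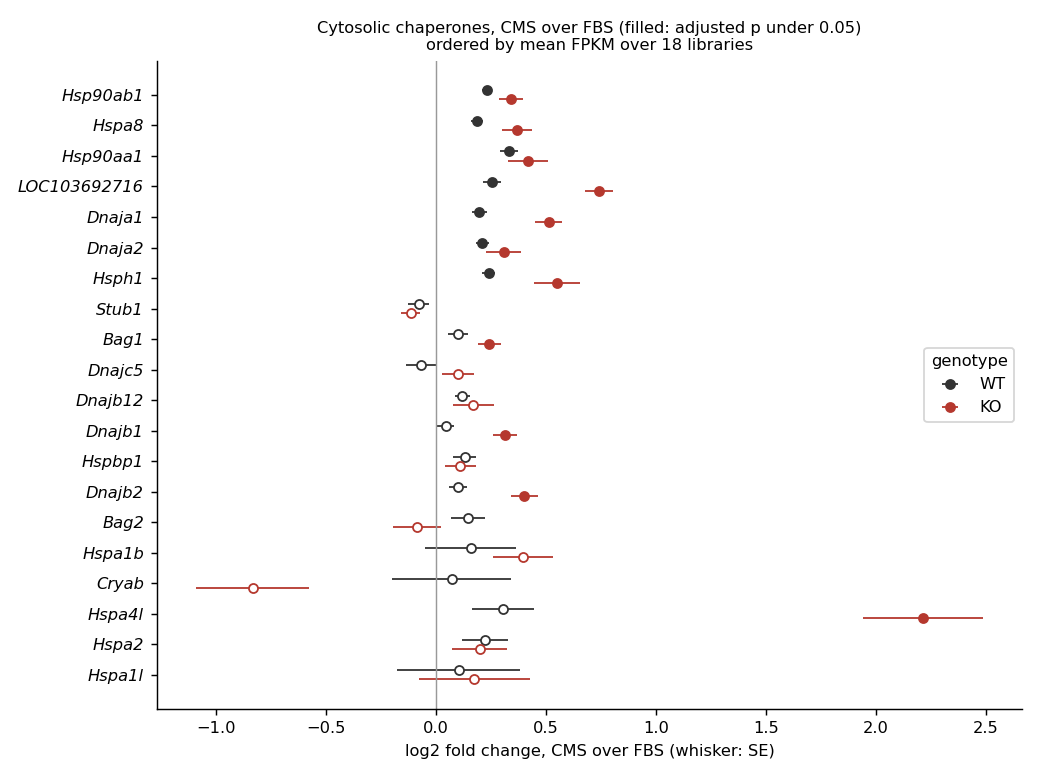
Log2 fold change of CMS over FBS for the 19 tested cytosolic chaperones and LOC103692716, in WT (black) and KO (red) cells (whiskers: SE, filled points: adjusted p under 0.05, ordered by mean FPKM). The 7 most abundant rows passed in both genotypes, and Hspa4l stood at 2.21 in KO cells against 0.30 in WT. Without KO FBS replicate 1, Hspa1b (0.53), Dnajb12 (0.29) and Cryab (-1.07) passed in KO cells as well.

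KO cells were then compared with their own SSt group. In KO FBS 77 of 144 tested members were lower (53.5%) and 20 higher (13.9%), with 29.5% and 30.3% of all 12888 genes. Past 2-fold, 5 were lower and 1 higher, with 7.67% and 9.47% of all genes. In KO CMS 59 were lower (41.0%) and 35 higher (24.3%), with 30.7% and 30.8% of all genes, and 4 and 4 passed 2-fold, with 9.66% and 9.56%. This split depends on the scaling: with library totals alone it was 77 lower and 21 higher, and that scaling moved the median of all genes by -0.11. Relative to the median of all genes, the members' median was -0.22 in KO FBS and -0.089 in KO CMS by edgeR. Without KO SSt replicate 3 the members higher in KO CMS were 23. Without KO FBS replicate 1, KO FBS again had 77 lower and 20 higher.

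Several changes had the same direction in both genotypes. Ckap4 had 189, 184 and 190.0 FPKM in KO SSt, 63.2, 72.5 and 69.9 in KO FBS and 66.9, 56.2 and 57.6 in KO CMS, and fell by 1.40 ± 0.068 and 1.53 ± 0.068. Bag2 fell by 1.59 ± 0.11 and 1.68 ± 0.11. Herpud1 rose from 29.1, 27.6 and 29.7 FPKM in KO SSt to 57.5, 63.4 and 67.9 in FBS and 73.8, 74.7 and 73.2 in CMS, by 1.19 ± 0.056 and 1.47 ± 0.057. The treated libraries of Ckap4 and Herpud1 did not overlap their SSt libraries. Dnajb11 fell by 0.89 ± 0.055 and 0.62 ± 0.054, Hsp90b1 by 0.69 ± 0.058 and 0.45 ± 0.058, and Sec61a1 by 0.57 ± 0.053 and 0.46 ± 0.053. Fbxo6 rose by 0.98 ± 0.065 and 1.17 ± 0.065.

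By role, the luminal genes of KO cells had 11 lower and 1 higher of 15 in FBS, with a median of -0.30, and 10 lower and 3 higher in CMS, with a median of -0.23. The translocon had 12 and then 11 of 14 lower and 1 higher each time. The VCP and shuttling role had 9 of 12 lower and 1 higher in FBS, with a median of -0.36, the lowest role median of KO FBS. In CMS it had 7 lower and 1 higher, with a median of -0.17. Membrane complexes of degradation had 7 lower and 5 higher of 23 under FBS, against 3 and 7 under CMS. Glycan trimming and the lectin cycle had 10 lower and 6 higher of 19 under FBS, against 5 and 7 under CMS. Among the cytosolic chaperones 12 of 19 were lower in FBS and none was higher by edgeR at this threshold, while in CMS 8 were lower and 7 higher. Of all genes, 29.5% were lower and 30.3% higher in KO FBS, and 30.7% and 30.8% in KO CMS. The membrane complexes lower in FBS and those higher in CMS (30.4% each) lay near these shares. These role counts are those of edgeR's scaling. With library totals alone, all members together had 21 higher and 77 lower in KO CMS. How far each role's shift between FBS and CMS depends on the scaling was not tested. Dnajb1, the heat-inducible HSP40, had 40.6, 38.7 and 38.9 FPKM in KO SSt, 20.9, 23.2 and 22.3 in KO FBS and 28.0, 25.0 and 26.7 in KO CMS. Its log2 fold changes over SSt were -0.77 ± 0.055 (adjusted p = 5.92e-06) and -0.46 ± 0.055 (adjusted p = 0.000102). Cryab fell by 1.87 ± 0.26 in KO FBS and 2.70 ± 0.27 in KO CMS, and Hspa1l by 2.43 ± 0.25 and 2.26 ± 0.25. LOC103692716 fell by 1.08 ± 0.065 in KO FBS, again with the uncertainty of a near copy.

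Whether the responses differed between genotypes was tested as the WT log2 fold change minus that of KO, in a fit of all 18 libraries (146 members and 13317 genes tested). A negative value means a deeper fall or a smaller rise in WT. For FBS 42 members were below 0 (28.8%) and 12 above (8.22%), with 18.5% and 17.2% of all genes. For CMS 61 were below 0 (41.8%) and 17 above (11.6%), with 21.6% and 23.2%. Without WT FBS replicate 2 or KO SSt replicate 3, the members above 0 for FBS were 7. Past 2-fold, FBS had 5 below and 1 above, with 5.33% and 3.64% of all genes, and CMS had 6 below and 1 above, with 6.77% and 6.65%. The counts hinge on the scaling, since library totals moved the median of all genes by 0.11 for FBS and 0.14 for CMS and gave 19 below and 26 above for FBS and 34 below and 38 above for CMS. Upper quartile scaling gave 24 below and 20 above for FBS and 39 below and 27 above for CMS. Without KO FBS replicate 1, FBS had 40 below and 9 above, and past 2-fold 3 below and 0 above, by edgeR. The members' median relative to all genes, which a scaling of whole libraries cannot move, was -0.066 for FBS and -0.19 for CMS by edgeR. It was -0.0302 and -0.0995 with limma at a pseudocount of 5.

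Hspa5 showed the difference in the lumen. Its level in KO SSt was 446, 434 and 419.8 FPKM, below every WT SSt library, with 352, 386 and 339 in KO FBS and 404, 447 and 469 in KO CMS. The KO FBS libraries lay below those of KO SSt, and KO CMS overlapped KO SSt. The KO log2 fold changes were -0.21 ± 0.072 for FBS (adjusted p = 0.0305, or -0.22 ± 0.081 and 0.045 without KO FBS replicate 1) and 0.13 ± 0.072 for CMS (adjusted p = 0.144). The differences, WT minus KO, were -0.53 ± 0.080 (adjusted p = 0.000158) and -0.88 ± 0.080 (adjusted p = 1.27e-06), and the first was -0.52 ± 0.085 without that library. Hyou1 differed by -0.43 ± 0.068 and -0.63 ± 0.068, and Dnajb11 by -0.39 ± 0.064 for CMS. For P4hb the 2 genotypes moved in opposite directions under stretch, from 1021, 938 and 943 FPKM in KO SSt to 1109, 1149 and 1248 in KO CMS, against 1031, 1019 and 1024 and 785, 739.8 and 743 in WT. The KO FBS libraries of P4hb read 1205, 941 and 908, the first being replicate 1, and the FBS difference was -0.53 ± 0.13 with it and -0.36 ± 0.066 without it (adjusted p = 0.000661).

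The oxidases differed most among the luminal genes. Ero1a had 87.4, 92.8 and 99.9 FPKM in WT SSt and 54.1, 46.6 and 47.4 in WT CMS, against 66.3, 59.7 and 58.8 in KO SSt, 94.4, 66.0 and 63.5 in KO FBS and 89.9, 68.4 and 88.5 in KO CMS. Levels fell with treatment in WT cells and every KO CMS library was above the KO SSt libraries. The differences were -1.17 ± 0.20 for FBS (adjusted p = 0.000364) and -1.48 ± 0.20 for CMS (adjusted p = 2.97e-05). The FBS value was -0.94 ± 0.14 without KO FBS replicate 1. Ero1b had 6.44, 6.49 and 5.70 FPKM in WT SSt and 2.76, 2.78 and 2.70 in KO SSt. It differed by -1.06 ± 0.19 for FBS (-0.91 ± 0.18 without KO FBS replicate 1) and -1.08 ± 0.19 for CMS, with KO values of 3.26, 2.92 and 2.27 in FBS and 2.53, 2.53 and 3.06 in CMS. The 3 KO groups of Ero1b overlapped one another, and treated WT cells had 3.24, 2.86 and 3.81 in FBS and 3.33, 3.20 and 3.03 in CMS.

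Among the sensors, Atf6 started lower in KO cells as well. It had 30.1, 32.0 and 30.2 FPKM in KO SSt, 28.4, 25.6 and 26.7 in KO FBS and 28.2, 30.9 and 28.8 in KO CMS, and its KO log2 fold changes of -0.13 ± 0.064 for FBS and 0.041 ± 0.064 for CMS did not pass. Without KO FBS replicate 1 the FBS value was -0.19 ± 0.054 and passed (adjusted p = 0.0144). FPKM follow the library totals, whereas the fitted changes use the trimmed-mean scaling, and the FPKM of KO FBS lay under those of KO SSt without overlap. The differences were -0.66 ± 0.077 (adjusted p = 1.89e-05) and -0.79 ± 0.077 (adjusted p = 2.08e-06), and the first was -0.60 ± 0.066 without that library. Ppp1r15a had 42.9, 38.7 and 37.8 FPKM in KO SSt, 68.1, 47.2 and 42.3 in KO FBS and 62.6, 78.8 and 80.0 in KO CMS, a range that overlapped starved WT cells. It rose by 1.0 ± 0.19 in KO CMS (adjusted p = 0.0014) and the differences were -1.26 ± 0.20 for FBS and -1.85 ± 0.20 for CMS (adjusted p = 5.5e-06). The FBS difference without KO FBS replicate 1 was -1.0 ± 0.12 (adjusted p = 2.13e-05). Eif2s1, the target of PERK, had a difference of 0.24 ± 0.071 for CMS (adjusted p = 0.0109). Eif2ak3, Xbp1 and Mbtps1, the site 1 protease that cuts ATF6, had differences of -0.037, -0.20 and 0.0094 for CMS, none of which passed.

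Cytosolic chaperones differed between genotypes in both directions, with CMS differences from -4.39 to 2.06. Hspa4l had 3.42, 2.65 and 3.57 FPKM in WT SSt and 1.21, 1.03 and 1.23 in WT CMS, but 1.39, 1.14 and 1.27 in KO SSt and 6.43, 9.58 and 10.0 in KO CMS. It fell in WT and rose 2.88 ± 0.28 in KO, with differences of -2.49 ± 0.32 for FBS (-2.14 ± 0.25 without KO FBS replicate 1) and -4.39 ± 0.33 for CMS (adjusted p = 2.24e-07). Hsph1 differed by -0.62 ± 0.11 and -0.92 ± 0.11. For Hspa1b the differences were -1.26 ± 0.27 for FBS (-1.12 ± 0.27 without KO FBS replicate 1) and -1.49 ± 0.27 for CMS, with the uncertainty of its near copies. Of these copies LOC108348108, tested only in this fit, had the lowest differences of all members, -4.25 for FBS and -4.77 for CMS. Neither passed. Cryab, the small heat shock protein alpha-B crystallin, ran the other way. It had 1.60, 1.78 and 0.954 FPKM in WT SSt, 8.64, 10.4 and 11.7 in KO SSt, 1.68, 2.83 and 3.60 in KO FBS and 1.60, 1.20 and 1.57 in KO CMS. The KO SSt libraries were the highest, WT libraries under treatment lay between 0.746 and 1.15 FPKM, and KO SSt overlapped no other group. Its differences were 1.15 ± 0.38 for FBS (adjusted p = 0.027) and 2.06 ± 0.38 for CMS (adjusted p = 0.000433), and the FBS value was 0.91 ± 0.34 without KO FBS replicate 1 and no longer passed (adjusted p = 0.0543). It was also lost without WT SSt replicate 3, WT FBS replicate 2 or KO SSt replicate 3, with adjusted p of 0.062, 0.0622 and 0.0649. In degradation Derl3 differed by -1.50 ± 0.41 for CMS (adjusted p = 0.00762) at levels under 6 FPKM.

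Under stretch 10 members were lower in WT and higher in KO at once, and the test of the difference passed for each. They were P4hb, Ero1a, Ppp1r15a, Hspa4l, Man1a1, Derl1, Derl2, Marchf6, Dnajb12 and Dnajc5. No member was higher in WT and lower in KO by these edgeR tests. With library totals alone 3 of the 10 were still higher in KO CMS (Ero1a, Hspa4l and Ppp1r15a), although all 10 had a value above 0. Leaving out single KO libraries left 3 (without KO SSt replicate 2) to 7 (without KO CMS replicate 1) of the 10, and Hspa4l and Ppp1r15a were among them under every setting. Under FBS 1 member, the mannosidase gene Man1a1, was lower in WT (-0.29 ± 0.049) and higher in KO (0.35 ± 0.075). Man1a1 trims the glycans of folded proteins and had 12.6, 12.0 and 12.3 FPKM in WT SSt, 9.21, 8.47 and 8.28 in WT CMS, 9.17, 9.29 and 9.11 in KO SSt and 9.26, 9.94 and 11.1 in KO CMS. Of the 144 tested members, 70 were lower and 18 higher in both genotypes under FBS, and 56 and 17 under CMS. Taken singly, 32.3% of all genes were lower in WT CMS and 30.8% were higher in KO CMS. How many of all genes had shared or opposite directions was not counted, so these counts have no background and describe the members only.

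**Figure D5:**
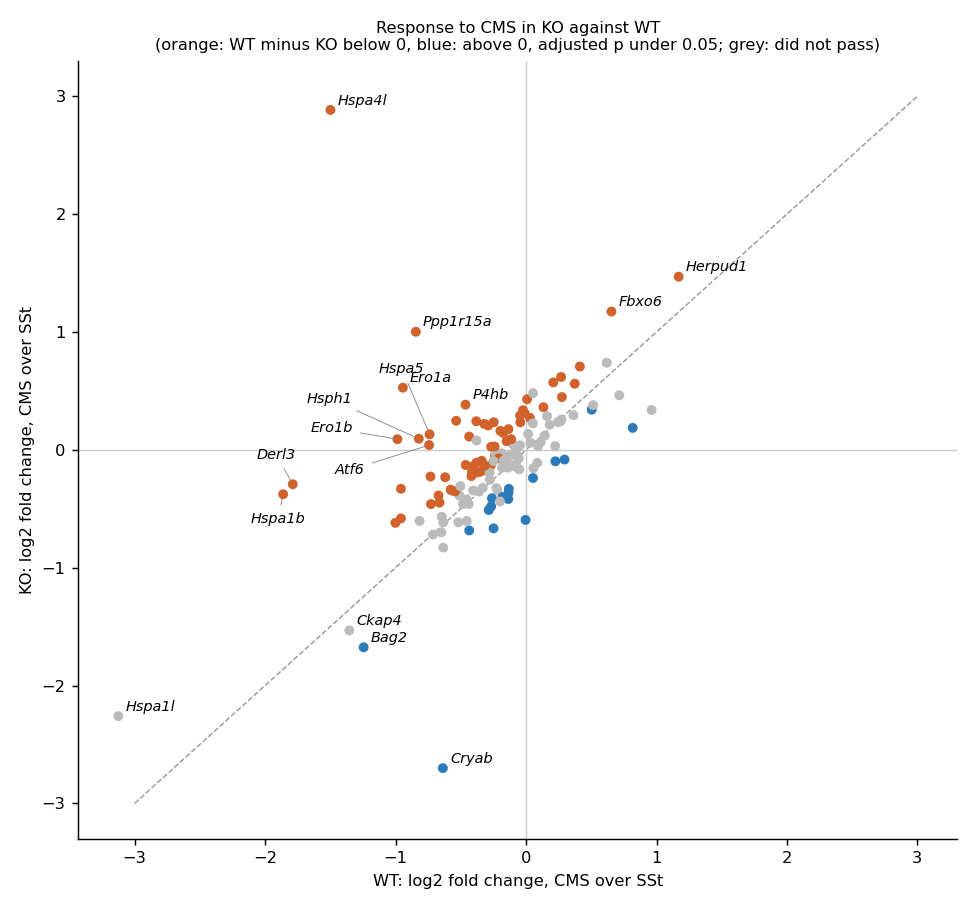
Log2 fold change of CMS over SSt in KO (y axis) against WT (x axis) for the members tested in every fit (dashed line: equal response, orange and blue: WT minus KO below and above 0 at an adjusted p under 0.05, grey: did not pass). Hspa4l, Ppp1r15a and Ero1a lie below 0 in WT and above 0 in KO, and Cryab lies far below the line. The split of orange and blue, 61 and 17 under edgeR's scaling, became 34 and 38 with library totals alone.

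Starved KO and WT cells were compared last. In KO SSt 43 of 146 members were lower (29.5%) and 31 higher (21.2%), with 23.2% and 24.2% of all genes. With library totals alone the counts were 28 lower and 50 higher, with upper quartile scaling 30 lower and 46 higher, and the members' median relative to all genes was -0.046 by edgeR and -0.0086 with limma at a pseudocount of 5. Genes of glycan trimming were lower in 12 of 19 cases and higher in none, while the translocon had 6 higher and 2 lower and the oligosaccharyltransferase 4 higher and 0 lower. These role counts are those of edgeR's scaling. Capn1, a calpain protease, had 30.3, 29.5 and 27.2 FPKM in WT SSt and 19.9, 21.5 and 20.7 in KO SSt and was lower by 0.56 ± 0.045 (adjusted p = 1.56e-07). Edem3, a mannosidase that marks proteins for degradation, was lower by 0.50 ± 0.043, Atf6 by 0.57 ± 0.054 and Hyou1 by 0.48 ± 0.048. For these 4 genes no KO library reached the WT range. Cryab was higher by 2.75 ± 0.28 (adjusted p = 1.56e-06), the highest value of the pathway in this comparison. Hspa4l was lower by 1.42 ± 0.23. Hspa5 was lower by 0.55 ± 0.057, Ero1b by 1.25 ± 0.14 and Ppp1r15a by 0.96 ± 0.14, whereas Ckap4 was higher by 0.46 ± 0.056. In the oligosaccharyltransferase Ddost had a log2 value of 0.080 ± 0.030 (adjusted p = 0.0381) and Dad1 -0.062 ± 0.059 (adjusted p = 0.418). Other abundant chaperones had log2 values of -0.066 for Calr, 0.058 for Pdia4 and -0.0053 for Hspa8, none of which passed.

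The 11 members with an ERSE or ERSE-II in the promoter window, of which 7 have their sequence given above, were set beside the 106 tested members whose window held neither. In WT FBS 10 of the 11 were lower and Herpud1 was higher, with a median log2 fold change of -0.72. Of the 106, 68 were lower and 19 higher, with a median of -0.22, and 32.7% of all genes were lower. In WT CMS 9 of the 11 were lower and 1 higher (median -0.73), against 68 and 21 of the 106 (-0.19) and 32.3% of all genes lower. In KO FBS 7 of the 11 were lower and 1 higher (median -0.28), against 54 and 17 of the 106 (-0.18) and 29.5% of all genes lower. In KO CMS 6 of the 11 were lower and 2 higher (median -0.23), against 42 and 27 of the 106 (-0.086) and 30.7% of all genes lower. Between the starved genotypes 7 of the 11 were lower in KO and 1 higher (median -0.15), against 28 and 25 of the 106 (0.0018) and 23.2% of all genes lower. These counts are those of edgeR's scaling. They are descriptions with no test, since the members were drawn from one pathway with earlier results known. Hspa5, Hsp90b1, Hyou1, Dnajb11, Dnajc3 and Ero1b of the 11 are luminal genes, a role whose median in WT FBS was -0.54. Ero1a, Pdia3 and Pdia6 of that role had no promoter entry and stand in neither set. The part of the role in the gap between the 2 sets was not tested. Herpud1, which holds an ERSE-II, rose in every comparison with SSt.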

How the data were processed

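Total RNA of 18 rat MSC libraries was sequenced, and the study deposited 1 gene table per genotype with 32623 rat Ensembl genes. Per the file headers, the authors give a whole-number read count and an FPKM value for each gene and library. The deposited counts are not normalized. The deposited FPKM are scaled by transcript length and library total, and 0.0001 stands for a count of 0 and was read as 0. Bowtie 0.12.2 and a mouse build stand in the submitters' processing notes, although the gene identifiers are those of rat, so no genome position was taken from the tables. The counting tool and its strand setting were not given in the sources used here. Columns holding the authors' own fold changes and p-values were not used.

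The deposited counts were fitted with edgeR 4.0.16 (R 4.3.3, quasi-likelihood F test, TMM scaling, Benjamini-Hochberg adjustment over all genes tested) in 3 fits: WT (9 libraries), KO (9 libraries) and all 18. Genes needed 1 FPKM in at least 3 libraries of a fit. A gene passed at an adjusted p under 0.05. SE is the log2 fold change divided by the square root of F. The code was tested on simulated counts. Depth was 56083000 to 71847969 counts, which leaves counting error small for all but the lowest members. DESeq2 1.42.0, limma 3.58.1 on log2(FPKM + 1), other pseudocounts (0.1 and 5), other scalings and filters, a replicate block and leaving out each library served as alternatives. No 2 libraries held identical values.

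Members and gene lists were chosen with earlier results of these data known. Named genes were the 4 most abundant of each role, those past 2-fold in a comparison with SSt or in a difference, the 5 of smallest adjusted p in the other comparisons and a set list of well-known pathway genes. Sil1, Casp12, Man1a1, Derl1, Derl2, Marchf6, Dnajb12, Dnajc5, Hspbp1, Dnajc3, Cul1 and Mbtps1 fall outside that rule and were chosen after their values were seen. The row named Ppa1 is a member because it also carries the orthology entry of the COPII GTPase SAR1.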

Additional observations from a re-analysis of the deposited data

Results flagged for a closer look

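The FBS response differed between genotypes by more than 2-fold for 6 members, by the edgeR test of the difference (WT minus KO, log2 scale, adjusted over 13317 genes). Of 146 tested members, 5 were below 0 and 1 above, with 5.33% and 3.64% of all genes. Hspa4l differed by -2.49 (adjusted p = 4.36e-05), Ppp1r15a by -1.26 (adjusted p = 0.000241), Ero1a by -1.17 (adjusted p = 0.000364), Ero1b by -1.06 (adjusted p = 0.000591) and Hspa1b by -1.26 (adjusted p = 0.00218). Cryab differed by 1.15 (adjusted p = 0.027). In the CMS response 7 members differed by that much, 6 below 0 and 1 above, with 6.77% and 6.65% of all genes. Hspa4l differed by -4.39 (adjusted p = 2.24e-07), Ppp1r15a by -1.85 (adjusted p = 5.5e-06), Ero1a by -1.48 (adjusted p = 2.97e-05), Ero1b by -1.08 (adjusted p = 0.000293), Hspa1b by -1.49 (adjusted p = 0.00038), Derl3 by -1.50 (adjusted p = 0.00762) and Cryab by 2.06 (adjusted p = 0.000433). For FBS and CMS alike, the share of the 146 members past 2-fold lay below that of all genes, in either direction. KO FBS replicate 1 enters the FBS values. Without it Hspa4l differed by -2.14, Ppp1r15a by -1.0, Ero1a by -0.94, Ero1b by -0.91, Hspa1b by -1.12 and Cryab by 0.91. The starved KO and WT cells enter both, so the 2 sets of differences share libraries. Hspa4l, Hspa1b, Derl3, Ero1b and Cryab are low or moderate in level, and Hspa1b may share reads with near copies. No group had enough libraries for a check of single outlying values.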

How the results depend on the processing

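Each group has 3 libraries, and several counts moved with the scaling. The edgeR counts of members over SSt in WT cells (22 higher and 100 lower in FBS, 24 and 96 in CMS) stayed within 1.5 times under every alternative run. Members higher in KO CMS over SSt were 21 with library totals alone and with limma at each of 3 pseudocounts, and 23 to 34 on leaving out single libraries. For the FBS difference, members above and below 0 were 26 and 19 with library totals, 27 and 19 with limma at pseudocounts 1 and 0.1, 29 and 20 at 5, and 20 and 24 with upper quartile scaling. For the CMS difference they were 38 and 34, 36 and 35 (pseudocount 1), 35 and 34 (0.1), 37 and 36 (5), and 27 and 39. In SSt, members higher in KO were 50 with library totals and with limma at pseudocounts 1 and 0.1 and 51 at 5, and members lower were 28 with library totals and at 0.1. For CMS over FBS in WT, 1 member was lower without a filter, with the replicate block and with the compared groups alone, and leaving out single libraries gave 7 to 11 higher and 0 to 2 lower. In KO, 2 were lower without a filter, 13 higher and 0 lower with the groups alone, and 15 to 39 higher and 0 to 8 lower on leaving out single libraries. Leaving out single libraries gave 7 to 12 members above 0 for the FBS difference. Members past 2-fold ranged over the alternatives from 3 to 10 lower in WT FBS, 2 to 9 lower in WT CMS, 3 to 5 lower in KO FBS, 2 to 4 higher in KO CMS, and 1 to 6 (FBS) and 3 to 6 (CMS) below 0 in the differences. The lowest of both WT counts and of both differences came from limma at a pseudocount of 5.

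Of 18 pairs of libraries sharing a replicate number, 1 had a correlation of deviations over 0.1 (range -0.12 to 0.13). With 3 libraries per group, such values cannot exclude a shared rat, culture or run. The replicate block gave 20 higher and 2 lower for KO CMS over FBS and 20 higher and 25 lower for SSt, KO over WT. Among 76 named genes, 11442 of 12339 alternative values kept their direction and side of the threshold, 608 no longer passed and 285 newly passed. The direction of Rpn2 in the CMS difference turned, to 0.0172, 0.0172 and 0.0174 with limma and 0.0199 with library totals. Cryab lost its call in the FBS difference without any 1 of 4 libraries (adjusted p = 0.0543 to 0.0649). The cause of these shifts was not tested.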
